A study of Mus musculus with 11 samples.

Results

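Heat-shock chaperones and cold-inducible RNA-binding proteins were examined in liver RNA-seq of 11 female mice. The 10 genes, of 36788 gene identifiers measured, were selected by name with earlier results of this same contrast in view: Hsp90aa1, Hsp90ab1, Hspa8, Hspa1a, Hspa1b, Hsph1, Dnaja1 and Dnajb1 among the chaperones, and Cirbp and Rbm3 among the RNA-binding proteins. Their differences between the groups were part of that choice, so they are given below as a description, with no test. The animals were WT C57BL/6 females older than 12 weeks, and both groups had been ovariectomized (OVX) and put on a high-fat diet. One group received follicle-stimulating hormone (FSH, 5 livers) and the other saline (6 livers). The comparison bears on what FSH given from outside does in the liver of a female without ovaries. Livers had been digested with papain, a protease, before total RNA was taken, and this step was common to both groups.

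Heat-shock proteins hold unfolded or newly made proteins until they reach their native shape. HSP70 proteins work with J-domain (HSP40) partners that deliver clients and with HSP110 proteins that exchange their nucleotide, and they pass many clients, among them steroid hormone receptors, on to HSP90. Genes of this system are switched on by heat shock factor when unfolded protein or heat accumulates, whereas Cirbp and Rbm3, small RNA-binding proteins with a single RNA-recognition motif, rise upon mild cooling. In liver, genes of both kinds are known to follow the daily cycle of feeding and body temperature.

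The promoter is where heat shock factor meets these genes, and the promoters that held the letters of its binding site are therefore shown first, with that of Cirbp. RefSeq promoter windows, from 250 bases before to 50 bases after a transcription start on GRCm38.p6, were found for 6 of the 10 genes (Hspa1a, Hspa1b, Hsph1, Dnaja1, Dnajb1 and Cirbp), which had 11 windows between them. The sequences below run from 250 bases before to 30 bases after the start and are written 5′ to 3′ on the gene's own strand. Capitals mark 2 inverted units of the heat shock element (GAANNTTC or TTCNNGAA, each of which reads the same on both strands) or the mild cold response element (TCCCCGCC on either strand, which appears as GGCGGGGA on the other). The Hspa1a stretch lies at chr17:34972127-34972406, minus strand, and the Hspa1b stretch at chr17:34959209-34959488, minus strand. The Hsph1 stretch lies at chr5:149636286-149636565, minus strand, the Dnaja1 stretch at chr4:40722218-40722497, plus strand, and the Cirbp stretch at chr10:80167589-80167868, plus strand.
Hspa1a: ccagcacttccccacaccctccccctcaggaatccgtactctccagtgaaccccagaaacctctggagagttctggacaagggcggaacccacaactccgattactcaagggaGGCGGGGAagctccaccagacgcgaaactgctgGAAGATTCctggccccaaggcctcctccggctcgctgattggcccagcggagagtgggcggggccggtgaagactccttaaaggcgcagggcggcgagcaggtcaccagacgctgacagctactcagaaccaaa
Hspa1b: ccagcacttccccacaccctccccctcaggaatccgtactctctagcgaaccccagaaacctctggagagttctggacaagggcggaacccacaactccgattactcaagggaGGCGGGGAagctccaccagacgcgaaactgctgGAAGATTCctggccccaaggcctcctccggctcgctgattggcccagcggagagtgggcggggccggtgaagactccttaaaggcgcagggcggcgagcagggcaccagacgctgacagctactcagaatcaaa
Hsph1: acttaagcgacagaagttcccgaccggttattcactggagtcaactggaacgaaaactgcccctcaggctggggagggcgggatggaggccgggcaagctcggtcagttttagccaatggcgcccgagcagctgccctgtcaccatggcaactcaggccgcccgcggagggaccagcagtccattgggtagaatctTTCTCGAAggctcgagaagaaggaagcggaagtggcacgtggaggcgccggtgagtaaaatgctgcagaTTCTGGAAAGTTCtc
Dnaja1: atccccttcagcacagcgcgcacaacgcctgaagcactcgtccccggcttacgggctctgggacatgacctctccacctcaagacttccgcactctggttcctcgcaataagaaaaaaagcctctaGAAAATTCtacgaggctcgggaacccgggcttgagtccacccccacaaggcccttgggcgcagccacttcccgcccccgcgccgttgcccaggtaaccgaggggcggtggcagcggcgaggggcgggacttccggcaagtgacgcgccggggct
Cirbp: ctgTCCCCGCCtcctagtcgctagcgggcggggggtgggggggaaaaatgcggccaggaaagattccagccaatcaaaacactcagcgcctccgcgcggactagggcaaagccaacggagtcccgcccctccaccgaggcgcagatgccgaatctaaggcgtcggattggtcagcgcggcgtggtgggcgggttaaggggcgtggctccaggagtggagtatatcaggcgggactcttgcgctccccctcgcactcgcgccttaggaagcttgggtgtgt

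The 2-unit heat shock element was found in at least 1 window of 4 of the 6 genes, Hspa1a, Hspa1b, Hsph1 and Dnaja1. Over all 27025 genes with a window, 17.0% held it, and 15.1% of the 32851 windows did. Hsph1, the HSP110 nucleotide exchange factor, held 3 matches in each of its 2 windows. The windows overlap (chr5:149636266-149636565 and chr5:149636287-149636586), so these are the same 3 matches. A pair of these overlapped and formed a run of 3 alternating units, which only Hsph1 held among the 6 genes and which was present in 0.662% of all genes. Hspa1a and Hspa1b, a tandem pair of stress-inducible HSP70 genes, each held GAAGATTC at positions -104 to -97 from the start, and their windows differed at 4 of 300 positions. The mild cold response element was found in 5 of the 6 genes, all but Hsph1, against 6.19% of all genes. Its letters overlap those of the GC box, a common promoter motif, and Cirbp held it at the far end of its first window, at positions -247 to -240. These matches are letters in a window and were not tested as binding sites.

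**Figure D1:**
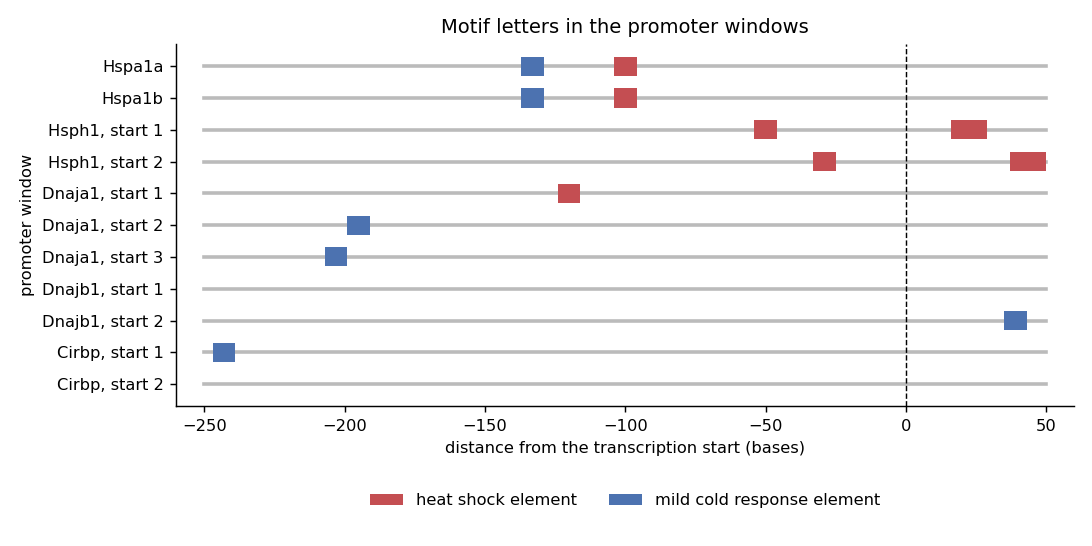
Position of each match (bars) along the 11 promoter windows (grey lines), in bases from the transcription start (dashed line), with the heat shock element in red and the mild cold response element in blue. Hspa1a and Hspa1b carry both motifs at the same places, and the 3 heat shock matches of Hsph1 flank its start.

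The deposited values were CPM values, the reads of a gene scaled to a library total of 1000000. Library depth was between 11410596 and 19909327 reads on genes in the FSH livers and between 10801891 and 16077442 in the saline livers. All 10 genes passed the filter of a mean of 0.5 CPM, as did 12733 genes in all. Of these, 1350 passed an adjusted p of 0.05 (limma; 803 without FSH replicate 1), with 6.19% of all tested genes higher with FSH and 4.41% lower. The first principal component, with 31.0% of the variance, put all FSH livers on one side and all saline livers on the other. Of the FSH livers, replicate 6 lay nearest to the saline side over all genes (0.116, beside 0.285 to 0.421). Hepatocyte markers were abundant in every library, at a summed level of 82350 to 110800 CPM.

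The 2 cytosolic HSP90 genes were lower in every FSH liver than in every saline liver. Hsp90aa1, the stress-inducible HSP90 (chromosome 12, 110690605 to 110702728, GRCm38, minus strand), had 146, 149.8, 246, 212 and 252 CPM in FSH replicates 1, 2, 3, 4 and 6. In saline replicates 1 to 6 it had 511, 284, 497, 375, 431 and 383 CPM. The groups did not overlap, and the FSH livers with the least were replicates 1 and 2. Mean levels were 414 ± 84.7 CPM (SD, n = 6) in saline livers and 201.2 ± 50.9 CPM (SD, n = 5) in FSH livers, 51.4% lower, and the log2 difference was -1.05 (SE 0.17).

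Hsp90ab1, the constitutive HSP90 (chromosome 17, 45567775 to 45573271, minus strand), had 745, 823, 804, 892 and 1041 CPM in the FSH livers. The saline livers had 1495, 1119, 1460, 1194, 1296 and 1253 CPM. These ranges also did not overlap, and the highest FSH liver, replicate 6, lay just under the lowest saline liver, replicate 2. It averaged 1303 ± 148 CPM (SD, n = 6) in saline livers and 861 ± 114 CPM (SD, n = 5) in FSH livers, and the log2 difference was -0.60 (SE 0.11). The ratio of Hsp90aa1 to Hsp90ab1 was 0.182 to 0.306 in the FSH livers and 0.254 to 0.342 in the saline livers, so the inducible gene was the scarcer one in every liver by this count of reads.

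The HSP70 genes did not share 1 direction. Hspa8, the constitutive cytosolic HSP70 and the most abundant of the 10 genes (chromosome 9, 40800984 to 40810087, plus strand), had 1245, 1223, 1554, 1584 and 1684 CPM in the FSH livers. With saline it had 2371, 2029, 2532, 1878, 1725 and 1831 CPM. No FSH liver reached the lowest saline liver, though replicate 6 of FSH and replicate 5 of saline were close. The saline mean was 2061 ± 322 CPM (SD, n = 6), the FSH mean was 1458 ± 210.1 CPM (SD, n = 5), and the log2 difference was -0.50 (SE 0.12). Hspa8 made up 49.2% to 51.3% of the summed CPM of the 8 chaperones in the FSH livers and 45.0% to 51.8% in the saline livers.

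Hspa1b, a stress-inducible HSP70 (chromosome 17, 34956436 to 34959238, minus strand), had 12.8, 17.1, 23.5, 54.6 and 56.0 CPM in the FSH livers. The saline livers had 21.8, 21.5, 28.2, 10.7, 15.3 and 29.9 CPM. FSH replicates 4 and 6 lay above every saline liver and the other 3 lay within the saline range, so the groups overlapped. Saline livers averaged 21.2 ± 7.37 CPM (SD, n = 6) and FSH livers 32.8 ± 20.9 CPM (SD, n = 5), a log2 difference of 0.45 (SE 0.36). It was 0.20 without FSH replicate 6, 0.21 without FSH replicate 4, 0.28 without saline replicate 4 and 0.72 without FSH replicate 1. Hspa1b was thus the gene with the widest spread among FSH livers after Hspa1a, with a coefficient of variation of 63.7% against 13.2% for Hsp90ab1.

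Hspa1a, its tandem neighbour (chromosome 17, 34969190 to 34972156, minus strand), was scarce, with 1.16, 1.25, 1.42, 5.68 and 2.28 CPM in the FSH livers, from 17 to 88 reads. In the saline livers it reached 2.91, 0.655, 2.10, 1.98, 1.94 and 1.12 CPM, from 9 to 35 reads. The groups overlapped, and only FSH replicate 4 lay above all saline livers. The log2 difference was 0.21 (SE 0.34) and turned to -0.12 without that replicate. Hspa1b gave 90.6% to 96.1% of the pair's CPM in the FSH livers and 84.3% to 97.0% in the saline livers. In the annotation, 48.6% of the 100-base windows of the Hspa1a transcript and 49.9% of those of Hspa1b also occur in other genes, chiefly each other, so the division of reads within the pair is uncertain.

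Hsph1, the HSP110 gene with 3 heat shock matches in each promoter window above (chromosome 5, 149614287 to 149636376, minus strand), had 20.8, 19.1, 39.6, 36.6 and 49.4 CPM in the FSH livers. The saline livers had 84.0, 78.3, 90.4, 67.9, 46.0 and 67.4 CPM. FSH replicate 6 lay above saline replicate 5, and the other 4 FSH livers lay below all saline livers. Saline livers averaged 72.3 ± 15.7 CPM (SD, n = 6) and FSH livers 33.1 ± 12.9 CPM (SD, n = 5). Its log2 difference of -1.18 (SE 0.23) was the furthest from 0 among the 10 genes, and it stayed between -1.34 and -1.01 when each liver was left out in turn.

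Of the HSP40 genes, which bring clients to HSP70 and trigger its ATPase, Dnaja1 (chromosome 4, 40722150 to 40737149, plus strand) had 244, 213, 334, 307 and 299 CPM in the FSH livers. The 6 saline livers had 359.8, 339, 431, 330.3, 289.7 and 343 CPM. Only FSH replicates 1 and 2 lay below every saline liver, and the log2 difference was -0.33 (SE 0.12). Dnajb1, the stress-inducible HSP40 (chromosome 8, 83608193 to 83612653, plus strand), had 19.3, 21.1, 28.4, 28.9 and 39.4 CPM in the FSH livers. The saline livers had 42.2, 42.0, 47.7, 33.2, 29.7 and 35.9 CPM. There 4 of 5 FSH livers lay below every saline liver while replicate 6 lay among them, and the log2 difference was -0.51 (SE 0.17).

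Cirbp, the cold-inducible RNA-binding protein (chromosome 10, 80165985 to 80172786, plus strand), had 21.7, 20.6, 15.0, 16.0 and 14.3 CPM in the FSH livers. Saline replicates 1 to 6 had 15.3, 12.5, 12.1, 18.8, 13.4 and 12.3 CPM. FSH replicates 1 and 2, the livers with the least Hsp90aa1, lay above all saline livers, and the other 3 FSH livers overlapped with them. Mean levels were 14.1 ± 2.61 CPM (SD, n = 6) in saline livers and 17.5 ± 3.39 CPM (SD, n = 5) in FSH livers, a log2 difference of 0.31 (SE 0.14).

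Rbm3, its cold-inducible relative on chromosome X (8138975 to 8145880, minus strand), had 82.4, 59.5, 70.7, 75.3 and 43.6 CPM in the FSH livers. The saline livers had 51.5, 42.4, 50.9, 45.2, 45.6 and 46.5 CPM. FSH replicates 1 to 4 lay above every saline liver, and replicate 6 lay near the bottom of the saline range. It averaged 47.0 ± 3.51 CPM (SD, n = 6) in saline livers and 66.3 ± 15.2 CPM (SD, n = 5) in FSH livers, a log2 difference of 0.46 (SE 0.14). The saline livers were tight, with a coefficient of variation of 7.46%, against 22.9% in the FSH livers.

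**Figure D2:**
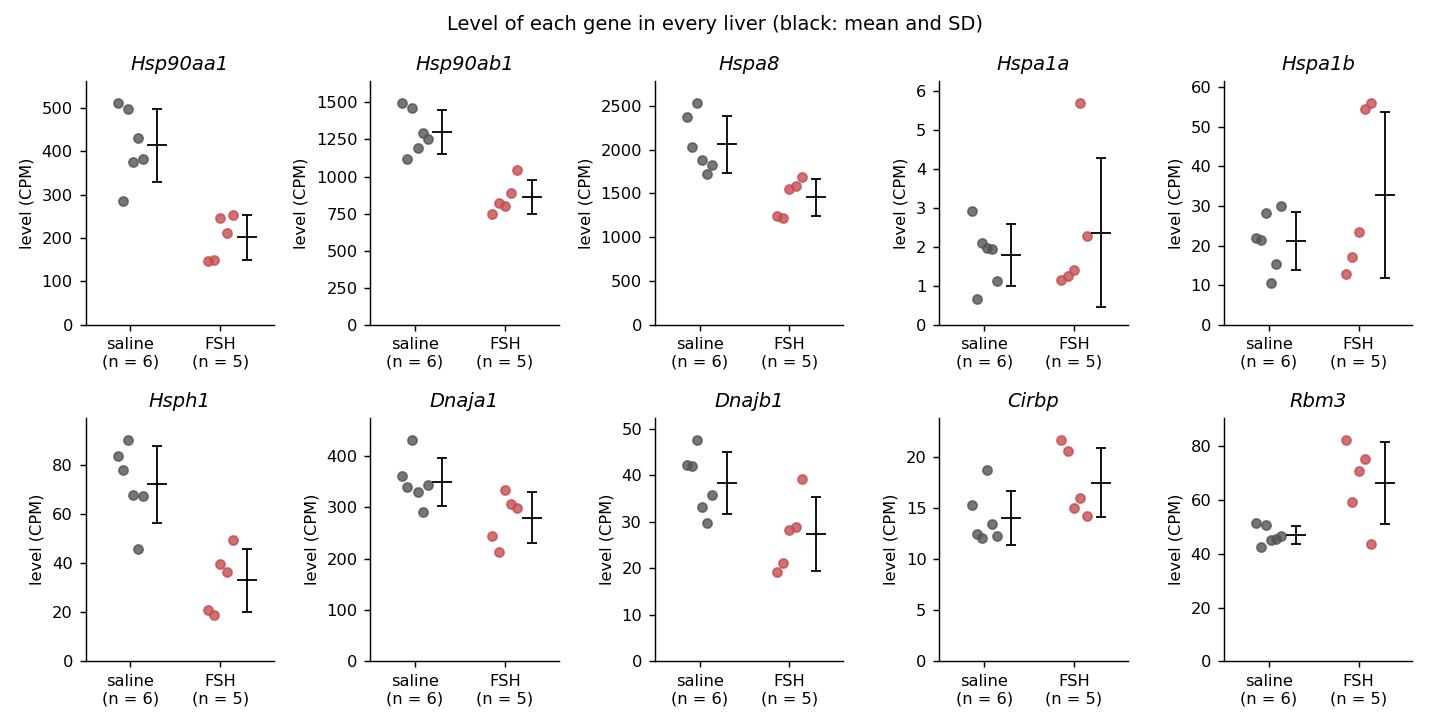
Level of each gene in CPM (linear axes from 0) in the 6 saline (grey) and 5 FSH (red) livers, each point 1 liver, with the group mean and SD in black. Hsp90aa1, Hsp90ab1 and Hspa8 have FSH ranges that lie below the saline ranges, while Hspa1b and Rbm3 spread more among FSH livers than among saline livers.

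Counted together, 6 of the 8 chaperones had a lower mean with FSH and 2, Hspa1a and Hspa1b, had a higher one. The median log2 difference was -0.50 for the 8 chaperones and 0.38 for Cirbp and Rbm3, beside 0.02 over all genes tested. By the thresholds used across the table, 4 of the 10 genes (Hsp90aa1, Hsp90ab1, Hspa8 and Hsph1) were called lower, beside a background of 4.41%, and 1 (Rbm3) was called higher, beside 6.19%. Past 2-fold as well were 2 of the 10 (Hsp90aa1 and Hsph1), beside 1.83% of all genes. The log2 difference of Hsp90aa1 was within 2-fold when FSH replicate 1 (-0.945), FSH replicate 2 (-0.953), saline replicate 1 (-0.984) or saline replicate 3 (-0.991) was left out. Groups did not overlap for 3 genes that were lower, beside 2.72% of all genes, and for none that was higher, beside 3.95%. Since the genes were chosen on this contrast, nothing is read from these counts.

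The summed level of the 8 chaperones was 2435, 2467, 3031, 3120 and 3423 CPM in FSH replicates 1, 2, 3, 4 and 6. In the saline livers it was 4887, 3913, 5088, 3892, 3834 and 3944 CPM. Even the highest FSH liver was below the lowest saline liver, and about 50.4% of the FSH sum and 48.3% of the saline sum, on average, was Hspa8 alone. The ratio of Hsp90aa1 to Cirbp ran from 6.75 to 17.6 in the FSH livers and from 19.97 to 41.2 in the saline livers, and that of Hspa8 to Rbm3 from 15.1 to 38.6 and from 37.8 to 49.7. The second pair of ranges overlapped only through FSH replicate 6.

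**Figure D3:**
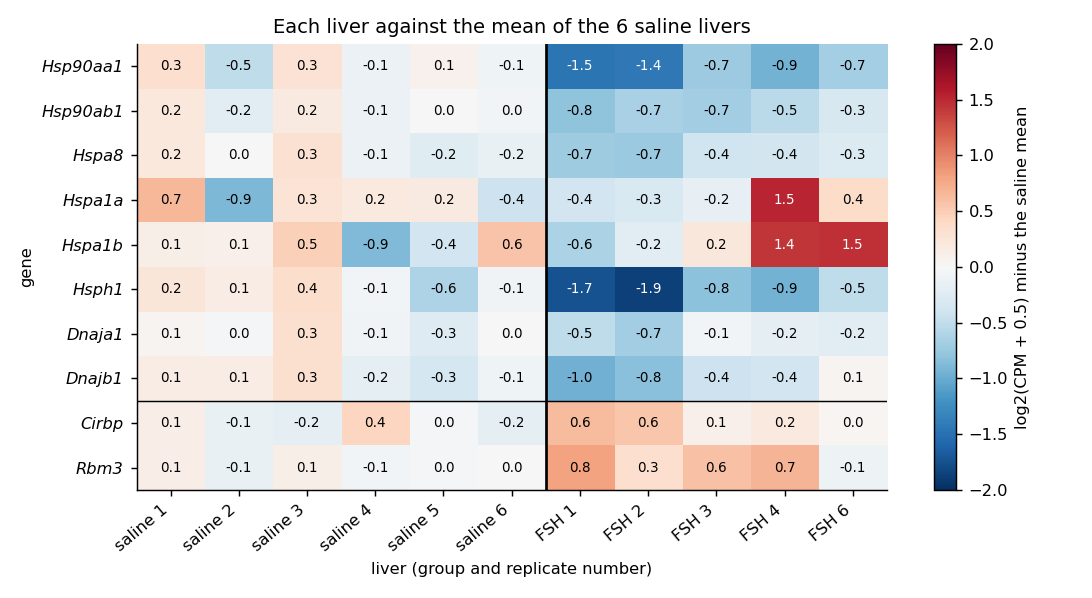
Each liver's log2(CPM + 0.5) minus the mean of the 6 saline livers (colour and printed value), with saline livers left of the line and FSH livers right of it, and the 2 RNA-binding genes below the lower line. FSH replicates 1 and 2 carry the deepest blue for Hsp90aa1 and Hsph1 and the strongest red for Cirbp, while FSH replicates 4 and 6 carry the red of Hspa1b.

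Levels can be set against each other between genes only per length, and the order depends on the length used. Merged exons can be longer than the longest coding transcript. Hspa8 had 4301 against 2394 bases, Hsp90ab1 2999 against 2520, Hsph1 7266 against 3802 and Cirbp 2604 against 1321. Hspa1a had 2967 by both. The order below is by merged exons and could differ by transcript length. Per kilobase of merged exons, the mean saline level was 479 CPM for Hspa8, 434 for Hsp90ab1 and 105 for Hsp90aa1. The next were Dnaja1 with 40.4 CPM per kilobase, Dnajb1 with 12.0, Rbm3 with 10.01, Hsph1 with 9.96, Hspa1b with 7.57, Cirbp with 5.40 and Hspa1a with 0.601. By merged exons, Hspa8 and Hsp90ab1 were within their spread of each other in saline livers (SD 74.8 and 49.4 CPM per kilobase). So were Dnajb1, Rbm3, Hsph1, Hspa1b and Cirbp between neighbours. With FSH the order changed in the lower part, where Rbm3 at 14.1 and Hspa1b at 11.7 CPM per kilobase stood above Dnajb1 at 8.55 and Hsph1 at 4.56. Hspa1b was below Dnajb1 in FSH replicates 1, 2 and 3 and above it in replicates 4 and 6, and its SD of 7.46 exceeded the gap between the means. Cirbp at 6.73 also stood above Hsph1 there, by less than the sum of their SDs.

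Some of these reads could belong to near-identical copies elsewhere in the genome. For Hsp90aa1, 47.5% of the 100-base transcript windows occur in other genes, for Hspa8 62.8%, for Dnaja1 14.8%, and for Rbm3 8.58%. Not all of these other genes were looked up. Of those that were, Gm8355, which shares sequence with Hspa8, had 1.18 to 3.42 CPM, Gm15542, which shares with Dnaja1, had 2.10 to 8.27 CPM, and Gm12346, which shares with Hsp90aa1, had at most 0.609 CPM. The antisense gene Rbm3os had at most 0.437 CPM and Gm20481, which overlaps Hspa1a on the other strand, at most 0.124 CPM. Smu1, which overlaps Dnaja1 on the other strand, had 36.9 to 50.1 CPM, and the use of strand in the counting is not given in the sources used here.

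Variation among livers of 1 group was not part of the contrast that led to these genes, and 6 relations were tested within the 6 saline livers on log2(CPM + 0.5). Hsp90aa1 and Rbm3 varied together (Pearson r = 0.94, exact permutation p = 0.00694, adjusted p = 0.0416 over the 6 relations, two-sided). Spearman's rho was 0.94 (exact permutation p = 0.0167, adjusted p = 0.10), which did not pass, and r was 0.86 without the 2 livers farthest from the median of Hsp90aa1. Without any 1 saline liver r was between 0.91 and 0.99, with adjusted p between 0.05 and 0.30. The FSH livers, 1 below the minimum of 6 set for a correlation, did not follow this relation: replicate 1 had the least Hsp90aa1 and the most Rbm3 of them, and replicate 6 the most Hsp90aa1 and the least Rbm3. Within groups over all 11 livers, r was -0.10.

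**Figure D4:**
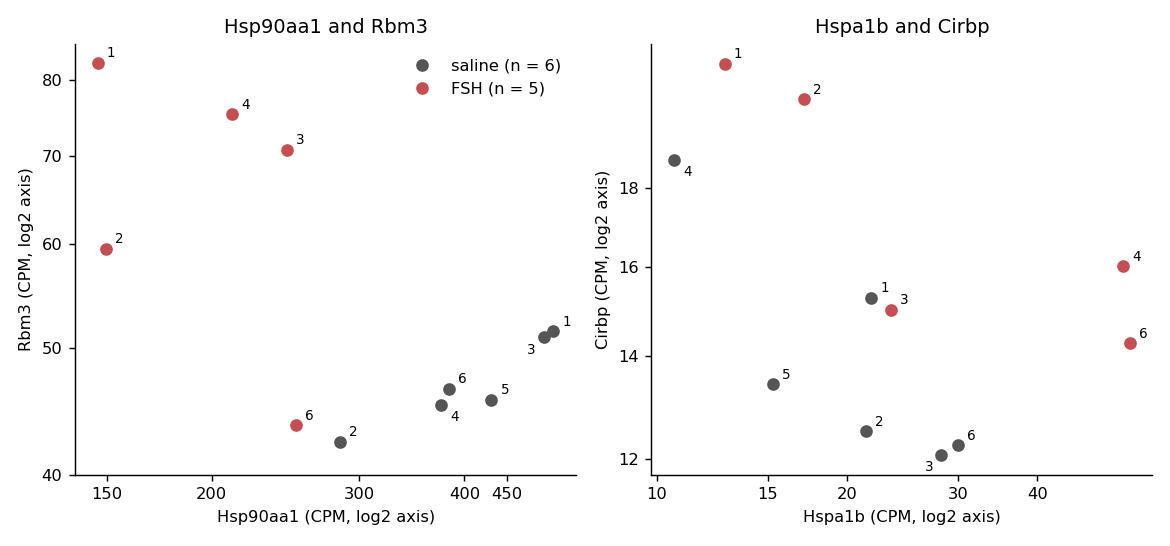
Levels of Rbm3 against Hsp90aa1 (left) and of Cirbp against Hspa1b (right) in CPM on log2 axes, each point 1 liver with its replicate number, saline in grey and FSH in red. Saline livers climb from lower left to upper right on the left and descend on the right, and 4 of the 5 FSH livers lie above and to the left of all saline livers in the Hsp90aa1 and Rbm3 plot.

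The opposite sign was seen for Hspa1b and Cirbp within saline livers (r = -0.83, exact permutation p = 0.0389, adjusted p = 0.117), which missed the threshold after adjustment. Spearman's rho was -0.77 (exact permutation p = 0.103, adjusted p = 0.309), and r was -0.62 without the 2 farthest livers. Hsp90aa1 and Hspa8 gave r = 0.50 and rho = 0.37 (exact permutation p = 0.322 and 0.497, adjusted p = 0.644 and 0.746, r = 0.77 without the 2 farthest). Hsp90aa1 with Cirbp (r = 0.06, rho = -0.09, exact permutation p = 0.90 and 0.919), Cirbp with Rbm3 (r = -0.02, rho = -0.20, exact permutation p = 0.971 and 0.714) and Hsp90aa1 with Hspa1b (r = 0.18, rho = 0.37, exact permutation p = 0.708 and 0.497) did not pass. Without the 2 farthest livers these were -0.59, -0.43 and 0.44, and their adjusted p was at least 0.746.

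Over all 11 livers after subtraction of each group's mean, and as a description only, the chaperones other than Hspa1a and Hspa1b correlated with each other at r = 0.44 to 0.95 (15 pairs, median 0.72). Hspa1a and Hspa1b had r = 0.32 to 0.82 with these 6 (12 pairs, median 0.63). The closest pair was Hsph1 and Dnajb1, with r = 0.95 (0.955 in FSH and 0.937 in saline livers). Hsp90aa1 had r = 0.98 with Hsph1 and 0.92 with Dnajb1 in FSH livers, but 0.13 and 0.18 in saline livers. Values by group are a description too, and the 5 FSH livers are under the minimum of 6 set above. Cirbp had r = -0.81 with Hspa1b, -0.70 with Dnajb1 and -0.62 with Hsph1. In FSH and saline livers apart, its r with Hspa1b was -0.825 and -0.83. With Dnajb1 it was -0.945 and -0.383, and with Hsph1 -0.981 and -0.099, so the saline livers hardly showed the last of these. Rbm3 ran between -0.45 with Dnajb1 and 0.10 with Dnaja1 against the same 6 chaperones, and had r = 0.31 with Cirbp. These pooled values of Rbm3 with the 6 chaperones mixed opposite signs. In saline livers all were above 0, from 0.44 with Hsph1 to 0.98 with Hsp90ab1. In FSH livers all were below 0, from -0.84 with Hsp90ab1 to -0.035 with Dnaja1. CPM values of 1 library share its depth and composition, so these points are not free of each other.

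Among 7082 other named genes with an average level of 10 CPM or more, those most like Hsp90aa1 over the 11 livers within groups were Hdhd3 (r = 0.93), Sgf29 (0.93), Psmb5 (0.93), Phf5a (0.92) and Fkbp4 (0.92). Fkbp4 encodes a co-chaperone of HSP90 at steroid receptors, and Psmb5 a catalytic subunit of the proteasome. Hsp90ab1 stood at rank 92 on that scale with r = 0.80. Those most like Cirbp were Kyat1 (r = 0.91), Mst1 (0.90), Napa (0.90), Slc6a12 (0.86) and Cisd1 (0.86), and Hspa1b stood at rank 7064 of 7082.

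Other genes of the chaperone system and related RNA-binding proteins, 156 in 10 lists by compartment and role without any of the 10 genes, were read from the same limma fit. Of 146 tested, 22 (15.1%) fell and 7 (4.79%) rose with FSH, beside 4.41% and 6.19% of all genes, and their median log2 difference was -0.07. Of the 22 lower calls, 11 were chaperones of the endoplasmic reticulum, and the difference between lists was not tested.

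Of the 22 endoplasmic reticulum chaperones, 11 fell and none rose, beside 4.41% lower and 6.19% higher of all genes. No gene of the list was higher at an unadjusted p under 0.05, nor by edgeR, which called 13 lower. The median log2 difference of the list was -0.47. Hyou1, the HSP110 relative of this compartment, fell from 130.2 ± 42.0 CPM (SD, n = 6) to 51.6 ± 11.9 CPM (SD, n = 5), a log2 difference of -1.31 (SE 0.20, adjusted p = 7.7e-04, limma). Sdf2l1, a partner of the HSP70 protein there, had a log2 difference of -1.58 (SE 0.27, adjusted p = 0.0019, limma). Manf, a secreted stress-induced factor that binds that HSP70, had -1.25 (SE 0.27, adjusted p = 0.00857, limma), and Creld2, another secreted stress-induced protein, had -1.27 (SE 0.26, adjusted p = 0.00621, limma). All 4 had FSH ranges below their saline ranges. The summed level of the list was 3827 to 4205 CPM in the FSH livers and 4486 to 7133 CPM in the saline livers.

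Among 26 co-chaperones of HSP90 and HSP70, 4 fell and none rose, beside 4.41% lower and 6.19% higher of all genes. In this list 1 gene was higher at an unadjusted p under 0.05, and 1 was called higher without FSH replicate 6. There edgeR called 6 lower and none higher. Of the 4 that limma called lower, Fkbp4 (adjusted p = 0.0313, limma) lost its call without a filter on low values (adjusted p = 0.0516, limma). It also lost it when FSH replicate 1, 2 or 4 or saline replicate 1 or 3 was left out (adjusted p = 0.0604 to 0.0876, limma). Stip1, the adaptor that joins HSP70 to HSP90, fell from 122 ± 17.0 CPM (SD, n = 6) to 71.8 ± 13.2 CPM (SD, n = 5), with a log2 difference of -0.77 (SE 0.12, adjusted p = 0.00122, limma) and no overlap. Ahsa1, which stimulates the ATPase of HSP90, had -0.47 (SE 0.10, adjusted p = 0.00773, limma). Of the 13 cytosolic HSP70, HSP110 and J-protein genes tested, 2 rose and 1 fell, beside 6.19% and 4.41% of all genes. Dnajb6 rose (0.64, SE 0.08, adjusted p = 1.53e-04, limma) and so did 1 more, while Hspa4l fell (-0.53, SE 0.11, adjusted p = 0.00725, limma). Dnajb6 is a J protein that holds back aggregation and Hspa4l an HSP110 gene like Hsph1.

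Hspb1, the small heat-shock protein HSP27, was the gene of its list that fell, 1 of 5 tested, beside 4.41% of all genes. It went from 78.2 ± 19.9 CPM (SD, n = 6) to 28.3 ± 17.8 CPM (SD, n = 5). Its log2 difference was -1.59 (SE 0.28, adjusted p = 0.0023, limma), though its highest FSH liver at 59.3 CPM stood above its lowest saline liver at 53.3 CPM. Without FSH replicate 6 or saline replicate 5, 2 genes of that list were called lower. Of 13 mitochondrial chaperones 2 fell and 1 rose, or 2 without FSH replicate 6, beside 4.41% lower and 6.19% higher of all genes, and the list's median log2 difference was 0.01. Clpx, the unfoldase of the matrix protease ClpXP, fell from 317 ± 46.9 CPM (SD, n = 6) to 84.6 ± 11.7 CPM (SD, n = 5), a log2 difference of -1.90 (SE 0.12, adjusted p = 2.58e-07, limma).

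Of 14 chaperonin and prefoldin genes 1 fell and 1 rose, beside 4.41% and 6.19% of all genes. Cct3 fell (-0.44, SE 0.09, adjusted p = 0.00444, limma) and Vbp1 rose (0.36, SE 0.11, adjusted p = 0.0459, limma), a call that was lost without any filter, with TMM scaling and when FSH replicate 1, 3 or 4 or saline replicate 1, 3, 4, 5 or 6 was left out (adjusted p = 0.0552 to 0.122, limma). None of 4 genes in the heat shock factor list, which also holds a factor-binding protein, passed limma or edgeR. An unadjusted p under 0.05 was found for 2: Hsf1, the main stress-responsive factor, at -0.26 (SE 0.10, adjusted p = 0.106, limma) and Hsf4 at 0.34 (SE 0.10, adjusted p = 0.0512, limma). Hsf4 passed with a replicate block (adjusted p = 0.0425, limma), with a pseudocount of 0.1 CPM (adjusted p = 0.05 after rounding, limma) and without FSH replicate 2 (adjusted p = 0.0314, limma). Of 9 polyubiquitin and aggregate-handling genes, 1 fell and none rose, beside 4.41% and 6.19% of all genes. The gene that fell was Ubqln1 (-0.36, SE 0.08, adjusted p = 0.0118, limma). The polyubiquitin gene Ubb had -0.48 (SE 0.16, adjusted p = 0.0623, limma), which passed without FSH replicate 6 (adjusted p = 0.0254, limma) or saline replicate 2 (adjusted p = 0.0346, limma).

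Among the RNA-binding relatives, none of 6 cold shock domain and RBMX relatives passed limma or edgeR, and none had an unadjusted p under 0.05. The smallest p values there were those of Carhsp1 (log2 difference 0.16, SE 0.08, adjusted p = 0.21, limma) and Rbmx (0.22, SE 0.13, adjusted p = 0.342, limma). Of 34 hnRNP, SR and other RNA-binding genes 3 rose, beside 6.19% of all genes, and 1 fell, beside 4.41%. The lower count was 0 without FSH replicate 1, 2 without FSH replicate 3 and 3 without saline replicate 2. Hnrnpd, which binds AU-rich messages, rose from 30.5 ± 3.35 CPM (SD, n = 6) to 46.3 ± 5.13 CPM (SD, n = 5), a log2 difference of 0.60 (SE 0.10, adjusted p = 0.00175, limma).

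**Figure D5:**
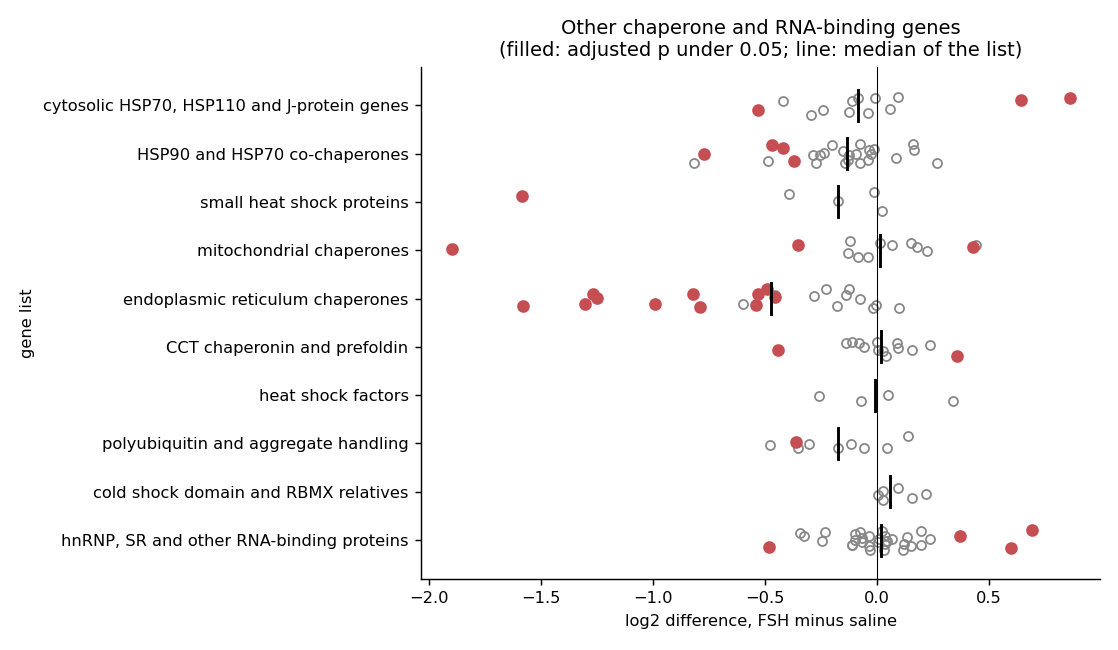
Log2 difference (FSH minus saline) of each tested gene in the 10 related lists, each point 1 gene, filled red where the adjusted p was under 0.05 (limma), with the median of each list as a black line. The endoplasmic reticulum list has its median at -0.47 and holds 11 of the 22 lower calls.

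Other gene groups moved with the groups of livers and are given beside the values above. Of 15 clock genes tested, 6 rose and 5 fell, 9 of them past 2-fold, beside 6.19%, 4.41% and 1.83% of all genes. Dbp, an output of the clock, was at 4.30 ± 0.66 CPM (SD, n = 6) in saline livers and at 83.0 ± 34.8 CPM (SD, n = 5) in FSH livers, a log2 difference of 4.02 (SE 0.23, adjusted p = 1.15e-07, limma). Per3, a repressor of the clock, rose by 2.61 (SE 0.21, adjusted p = 6.91e-06, limma), and Arntl, its activator, fell by 2.33 (SE 0.20, adjusted p = 1.14e-05, limma). Npas2, a partner of Arntl, was listed at 0 to 0.101 CPM in the FSH livers and at 4.64 to 7.14 CPM in the saline livers (adjusted p = 2.95e-09, limma). The time of day at which livers were taken is not given in the sources used here, and its part in the values above was not tested.

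Of 17 immediate early genes, 6 fell and 1 rose, beside 4.41% and 6.19% of all genes (edgeR called 11 of the 17 lower). Their summed level was 421 to 515 CPM in the FSH livers and 445 to 1648 CPM in the saline livers. Fos was at 1.76 to 3.40 CPM with FSH and at 3.55 to 85.0 CPM with saline (log2 difference -2.64, SE 0.60, adjusted p = 0.0121, limma). Egr1 fell by 2.26 (SE 0.44, adjusted p = 0.0041, limma), Jun fell by 1.80 (SE 0.40, adjusted p = 0.00966, limma) and Junb fell by 1.34 (SE 0.32, adjusted p = 0.0162, limma). The part of either list in the chaperone and Rbm3 values was not tested.

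Of 51 markers of 10 liver and non-liver cell types, 39 could be tested and 2 passed, beside 10.6% of all genes in either direction. Lyve1, of sinusoidal endothelium, fell by 0.63 (SE 0.14, adjusted p = 0.0121, limma), and Krt7, of bile duct cells, rose by 0.69 (SE 0.15, adjusted p = 0.00731, limma). Sox9, of the same bile duct list, had a lower mean with FSH (-0.50, SE 0.16, adjusted p = 0.0545, limma). Kupffer cell markers summed to 91.9 to 249 CPM with FSH and 149 to 299 CPM with saline, and stellate cell markers to 189 to 260.4 CPM and 217 to 293 CPM. All 5 Kupffer cell and all 5 stellate cell markers had a lower mean with FSH, as had 4 of 5 of sinusoidal endothelium and 4 of 5 of red cells, with median log2 differences of -0.42, -0.18, -0.13 and -0.07. A higher mean was seen for 4 of 5 bile duct and 5 of 6 hepatocyte markers, with medians of 0.28 and 0.05. Markers of sinusoidal endothelium summed to 109 to 162 CPM and 126 to 151 CPM, of bile duct to 47.7 to 69.4 CPM and 38.3 to 55.7 CPM, and of red cells to 464 to 790.0 CPM and 425 to 1009 CPM. Neutrophil, lymphocyte, adipocyte and pancreatic acinar markers summed to at most 16.3 CPM in any liver, with Ly6g, Lep, Retn and Pnlip at 0 in all. In whole liver a fall in the number of cells of 1 type and less RNA per cell cannot be told apart, and the part of any cell type in these values was not tested.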

How the data were processed

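Libraries were prepared from total liver RNA with the NEBNext Ultra kit and sequenced as paired ends on an Illumina instrument. FastQC 0.11.2, cutadapt, Trim Galore 0.3.3, STAR, RSEM and the mm10 build are named in the submitters' processing notes, and the annotation and the strand setting are not given in the sources used here. Deposited was a single CPM (counts per 1000000) table, the reads of each of 36788 genes per 1000000 reads of the library, with no further scaling and no filter. All per-sample columns were used. Dividing each library by its smallest step gave whole reads for 100% of values (within 0.05 read), although RSEM estimates need not be whole. These reads gave the depth and the edgeR alternative.

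The 12733 genes averaging 0.5 CPM or more entered a limma 3.58.1 fit of log2(CPM + 0.5) under R 4.3.3 (intensity trend, Benjamini-Hochberg adjustment over all of them), and log2 differences are on that scale, which understates low genes. The main thresholds were an adjusted p of 0.05 and 2-fold. Alternatives were other pseudocounts, no filter, TMM scaling, a replicate block, edgeR 4.0.16 on recovered reads and leaving out each liver.

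The 10 genes, the lists and the tests were chosen with earlier results of these data known. All 10 are named. From each related, clock or immediate early list, the genes past both thresholds were named (at most 4, by smallest p), or otherwise the 2 with the smallest p. A gene that this rule names is not reported here. The 5 genes most like Hsp90aa1 and the 5 most like Cirbp were named by Pearson r after subtraction of group means. Lyve1, Krt7 and Sox9 were named after their values were seen, as were the genes that could share reads. Of the list genes, 1 (Hspa14) was not found by its symbol. Correlations used exact permutation tests over all 720 orders of 6 livers. Promoter sequences were taken from RefSeq. Nothing in the labels says how the livers were drawn apart from their replicate numbers, so p-values measure the spread between these samples.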

Additional observations from a re-analysis of the deposited data

Results flagged for a closer look

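Of 20 gene and group combinations examined among the 10 genes, 1 had a liver far from the others. In FSH replicate 4, Hspa1a stood at 5.68 CPM, the highest of the FSH livers, and the next liver had 2.28 CPM. The gap was 0.752 of the group's range, above the critical value of 0.71 for 5 samples. Chance alone gives such a liver in about 1 of 20 groups. Hspa1b, the gene next to it, was at 54.6 CPM in that liver and at 56.0 CPM in FSH replicate 6. The cause was not tested.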

How the results depend on the processing

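The log2 difference of each of the 10 genes moved under every alternative run by less than its pooled SD between livers of a group (0.172 to 0.755 on the log2 scale). Leaving out 1 liver can hardly move a group mean by that much, so this says little about stability. The sign of the difference was kept in 9 of the 10 genes, while Hspa1a turned from 0.21 to -0.12 without FSH replicate 4. The medians kept their sign, between -0.60 and -0.42 for the 8 chaperones and between 0.30 and 0.49 for Cirbp and Rbm3 when each liver was left out. Genes past an adjusted p of 0.05 numbered 1350, and from 803 (without FSH replicate 1) to 1659 (without FSH replicate 6), and related-list genes called lower from 17 to 27. With 3 alternating units in place of 2, the heat shock element was found in 1 of the 6 genes with a window instead of 4. With a replicate block the calls were 1520, with 23 lower and 8 higher related-list genes and medians of -0.51 and 0.38, and of the named genes of the related lists it changed the call of Hsf4 (adjusted p = 0.0425, limma). Same-numbered livers deviated with correlations of 0.07, 0.36, 0.02, 0.14 and -0.07 over the 5 shared numbers, so the numbers were not taken to pair them. Of these FSH livers, 1 of 5 correlated best with its own number. The saline correlation of Cirbp and Rbm3 turned to 0.25 with TMM scaling, and ran from -0.305 (without saline replicate 2) to 0.393 (without saline replicate 4), with 0.246 without saline replicate 3. That of Hsp90aa1 and Cirbp ran from -0.307 (without saline replicate 2) to 0.441 (without saline replicate 4) and was -0.094 without saline replicate 1, and that of Hsp90aa1 and Hspa1b from -0.026 (without saline replicate 3) to 0.418 (without saline replicate 2). The relation of Hsp90aa1 and Rbm3 kept r between 0.91 and 0.99 but not its call with 5 livers, for which the smallest adjusted p found was 0.05. An exact test on 5 livers has so few orders that it could hardly pass after adjustment, so nothing is read from the lost call. Hspa1a, at 9 to 88 reads per liver, is limited by depth.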
